A study of Mus musculus with 3 samples.

Results

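miR-125a and miR-125b are the 2 microRNA names covered here, chosen by name as every row of these hairpins, whichever arm or gene copy, in a table of mature miRNAs from mouse colonic mucosa. They filled 5 of the 471 rows, namely miR-125a-5p, miR-125a-3p, miR-125b-5p and a pair of rows that both carry the name miR-125b-3p. Each of the 5 had a mean of at least 10 normalized reads over the libraries, the limit that 415 rows of the table passed. The table holds 1 library per group, in 3 groups. The mimic library came from mucosa with a global mir-10b deletion (mir-10b-/-) after injection of a miR-10b-5p mimic, a synthetic copy of the missing miRNA, and is labelled rescue. The KO library came from mir-10b-/- mucosa labelled diabetic, and the WT library from mir-10b+/+ mucosa labelled healthy. Genotype and diabetic state therefore differ together between KO and WT, the labels name no control injection, and the deletion was in the whole body. The age, sex and number of mice behind a library are not given in the labels.

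miR-125 is the mammalian counterpart of lin-4 of Caenorhabditis elegans, a miRNA that times larval development by repressing lin-14. A miRNA hairpin is cut into a short duplex, and the strand that is loaded into an Argonaute protein pairs with target mRNAs mainly through its seed, bases 2 to 8. The strand from the 5′ side of the miR-125 hairpins is the usual guide and the 3′ strand is mostly degraded. In mammals miR-125b represses the pro-apoptotic gene Bak1 and, in human cells, the p53 gene. In the gut wall miR-125b is typical of mesenchymal cells rather than of the epithelium.

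The mature sequences are shown because the seed decides which names may be added together as regulators of the same sites. They are RefSeq sequences on GRCm38.p6, written 5′ to 3′ with the seed in capitals, for the miR-125 rows and for miR-351-5p, the other row of the table with that seed.
miR-125a-5p: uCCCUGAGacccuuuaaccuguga
miR-125b-5p: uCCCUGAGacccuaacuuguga
miR-351-5p: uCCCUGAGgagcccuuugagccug
miR-125a-3p: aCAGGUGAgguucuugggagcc
miR-125b-1-3p: aCGGGUUAggcucuugggagcu
miR-125b-2-3p: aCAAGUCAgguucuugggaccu
miR-125a-5p, of 24 bases, and miR-125b-5p, of 22 bases, shared their first 13 bases and their last 5 bases. miR-351-5p shared the first 8 bases with each of them. Of 5 mature mouse miRNAs in the RefSeq table with this seed, 3 had a row in the data, and miR-6367 and miR-6394 had none. The 3′ arms carried 3 different seeds, none of which occurred in another mature miRNA of the RefSeq table. Between miR-125b-1-3p and miR-125b-2-3p 5 of 22 positions differed. The deposited table gives no copy number for its pair of miR-125b-3p rows, so neither row could be assigned to a copy. They are called row 1 and row 2 here in the order of the table, and 3 of the 5 rows matched a RefSeq name directly.

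The hairpins are shown to place the arms, with both mature arms in capitals, for the copies whose hairpin is in the RefSeq table (GRCm38.p6).
Mir125a: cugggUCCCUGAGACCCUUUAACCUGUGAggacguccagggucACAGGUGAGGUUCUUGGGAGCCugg
Mir125b-1: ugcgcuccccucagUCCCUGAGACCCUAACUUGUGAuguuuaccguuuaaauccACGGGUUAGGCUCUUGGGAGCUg
miR-125a-5p is made from 1 gene, Mir125a, at chr17:17830812-17830879 on the plus strand of GRCm38. It lies inside the protein-coding gene Spaca6, in an intron of 2 annotated transcripts and over an exon of 1. miR-125b-5p is made from both Mir125b-1 and Mir125b-2. Mir125b-1 lies at chr9:41581926-41582002 on the plus strand, in introns of the long noncoding transcript 3110039I08Rik and over an exon of Gm28119. Mir125b-2 lies at chr16:77646273-77646343 on the plus strand, in introns of Mir99ahg, a noncoding host transcript. The level of miR-125b-5p cannot be divided between these copies, whose mature 5p sequence is the same.

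Each of the 3 miR-125 genes has a miR-99 or miR-100 hairpin and a let-7 hairpin upstream on the same strand. Mir125a is 367 bases from Mirlet7e and 554 bases from Mir99b. Mir125b-1 is 45.1 kb from Mirlet7a-2 and 50.4 kb from Mir100, and Mir125b-2 is 46.5 kb from Mirlet7c-1 and 47.3 kb from Mir99a.

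**Figure D1:**
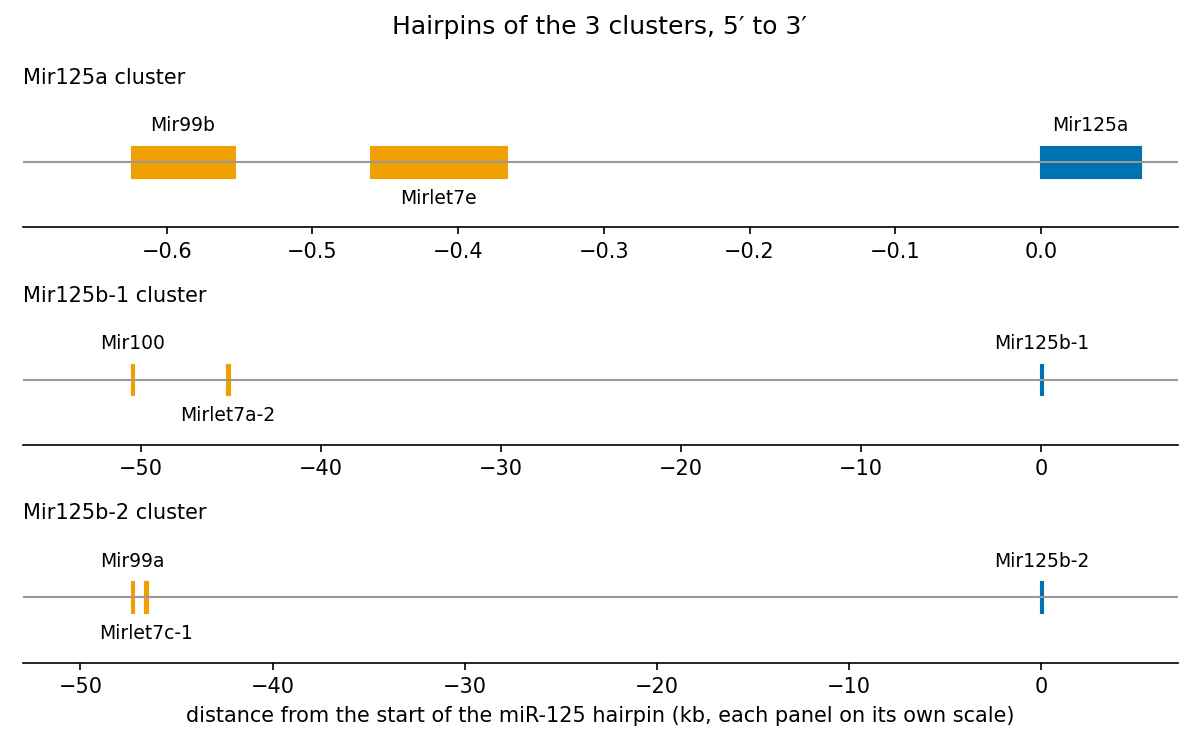
Position of each hairpin of the 3 miR-125 clusters, as the distance in kb from the start of the miR-125 hairpin (GENCODE M21), with each panel on its own scale; blue boxes are miR-125 and orange boxes its neighbours. The Mir125a cluster is packed within 1 kb, whereas the neighbours of Mir125b-1 and Mir125b-2 lie 45.1 to 50.4 kb upstream.

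Levels are normalized miRNA reads as deposited. They summed to 8510085 in mimic, 8124898 in KO and 4872446 in WT, so the libraries do not share a total, and the sequencing depth is unknown. With 1 library per group no value has a replicate error, no test across samples was possible and every comparison is between libraries, not conditions. A ratio is called at least 2-fold higher or lower on the log2 scale after adding a pseudocount of 1 read. The product of the deleted gene, miR-10b-5p, stood at 469 reads in mimic, 14 in KO and 18057 in WT, so WT was the highest and KO the lowest. Epithelial marker miRNAs (miR-192-5p, miR-194-5p, miR-215-5p, the miR-200 family and miR-141-3p) were present in all 3 libraries, with 8 of 8 rows above 0, and took 28.9% of the total in mimic, 31.5% in KO and 31.5% in WT. Single rows of this list differed in order. miR-200b-3p was highest in KO (139362 in mimic, 334093 in KO, 171853 in WT). miR-215-5p was highest in mimic (175976, 92654 and 85529 in that order) and miR-429-3p in WT (74855, 46991 and 83919).

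The guide strands of miR-125a and miR-125b did not share a pattern. miR-125b-5p, the most abundant row of the group in mimic and KO, had 17321 normalized reads in mimic, 16539 in KO and 7257 in WT. It was thus high in both mir-10b-/- libraries, 2.39-fold above WT in mimic and 2.28-fold above WT in KO. miR-125a-5p had 6918 normalized reads in mimic, 6833 in KO and 8251 in WT. Its 3 values lay close together, with WT the highest. As a share of the library total, miR-125b-5p took 0.204% in mimic, 0.204% in KO and 0.149% in WT. miR-125a-5p took 0.0813% in mimic, 0.0841% in KO and 0.169% in WT. By level miR-125b-5p was rank 48 of the 471 rows in mimic, 55 in KO and 68 in WT, and miR-125a-5p was rank 74 in mimic, 78 in KO and 65 in WT.

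The 3′ strands, which are the minor products, were far lower. Row 1 of miR-125b-3p had 736 normalized reads in mimic, 224 in KO and 249 in WT. Row 2 of miR-125b-3p had 304 normalized reads in mimic, 171 in KO and 156 in WT. In both rows mimic was the highest library, and KO and WT lay near each other in the deposited values. As a share of the library total they were further apart. Row 1 took 0.00865% in mimic, 0.00276% in KO and 0.00511% in WT. Row 2 took 0.00357% in mimic, 0.00210% in KO and 0.00320% in WT. miR-125a-3p had 41 normalized reads in mimic, 39 in KO and 102 in WT, so that here WT stood alone as the highest. The 5 rows thus did not share 1 order over the 3 libraries.

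**Figure D2:**
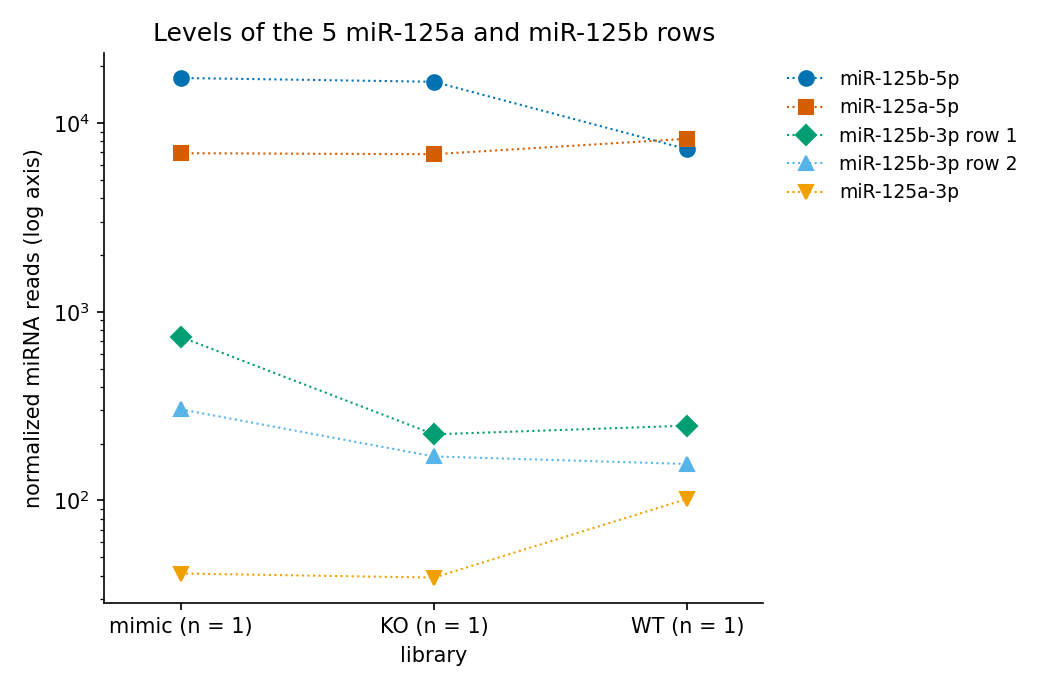
Normalized miRNA reads (log axis) of the 5 miR-125a and miR-125b rows in the mimic, KO and WT libraries, 1 library each, with dotted lines joining the values of a row. miR-125b-5p lies at 17321 and 16539 in mimic and KO and at 7257 in WT, while the highest miR-125b-3p values, 736 and 304, are in mimic.

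KO against WT asks how the colonic mucosa of the mir-10b-/- genotype, labelled diabetic, compared with that of the wild type. Of the 5 miR-125 rows, miR-125b-5p was at least 2-fold higher in KO (log2 ratio 1.19) and miR-125a-3p at least 2-fold lower (-1.36). Over all 415 rows, 21.2% were at least 2-fold higher and 9.64% at least 2-fold lower. miR-125b-5p held rank 65 of 415 from the highest ratio, among 88 rows called higher. miR-125a-3p held rank 394, and its values of 39 reads in KO and 102 in WT are among the low ones of the table. The other 3 rows lay between the limits, at -0.27 for miR-125a-5p, -0.15 for row 1 and 0.13 for row 2 of miR-125b-3p. The median over the 5 rows was -0.15, against 0.13 over all rows. Scaling both libraries to the same total put the ratio of miR-125b-5p at 0.45, inside the 2-fold limit, and that of miR-125a-5p at -1.01, beyond it. Row 1 of miR-125b-3p then stood at -0.89 and row 2 at -0.60, inside the limit. The median of all rows moved by -0.73.

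Mimic against KO sets a mir-10b-/- library with the injected mimic beside a separate mir-10b-/- library without it. The labelled state also differs, rescue for mimic and diabetic for KO, and cannot be told apart from the injection. Row 1 of miR-125b-3p was 3.29-fold higher in mimic (log2 ratio 1.71, rank 24 of 415), the 1 miR-125 row past the 2-fold limit among 5. Over all rows 13.3% were at least 2-fold higher and 28.2% at least 2-fold lower. Row 2 of miR-125b-3p had a log2 ratio of 0.83, which passed the limit with median-of-ratios factors (1.11). Both guide strands were near equal in these libraries, with log2 ratios of 0.07 for miR-125b-5p and 0.02 for miR-125a-5p, and miR-125a-3p was at 0.07. All rows of the table had a median of -0.31 in this comparison and the 5 miR-125 rows one of 0.07.

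Mimic against WT asks how far the injected mir-10b-/- library lay from the wild type. miR-125b-5p (log2 ratio 1.25, rank 56) and row 1 of miR-125b-3p (1.56, rank 38) were at least 2-fold higher in mimic, and miR-125a-3p was at least 2-fold lower (-1.29, rank 328). Over all rows 19.8% were at least 2-fold higher and 25.8% at least 2-fold lower. Row 2 of miR-125b-3p was at 0.96, just inside the limit, and passed it with median-of-ratios factors (1.09), whereas equal totals put it at 0.16. miR-125a-5p was at -0.25. The 5 rows had a median of 0.96, against -0.14 over all rows. With equal totals miR-125b-5p stood at 0.45 and row 1 of miR-125b-3p at 0.76, both inside the limit, and miR-125a-5p at -1.06. This comparison shares its libraries with the 2 before it, so the values are not separate evidence.

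**Figure D3:**
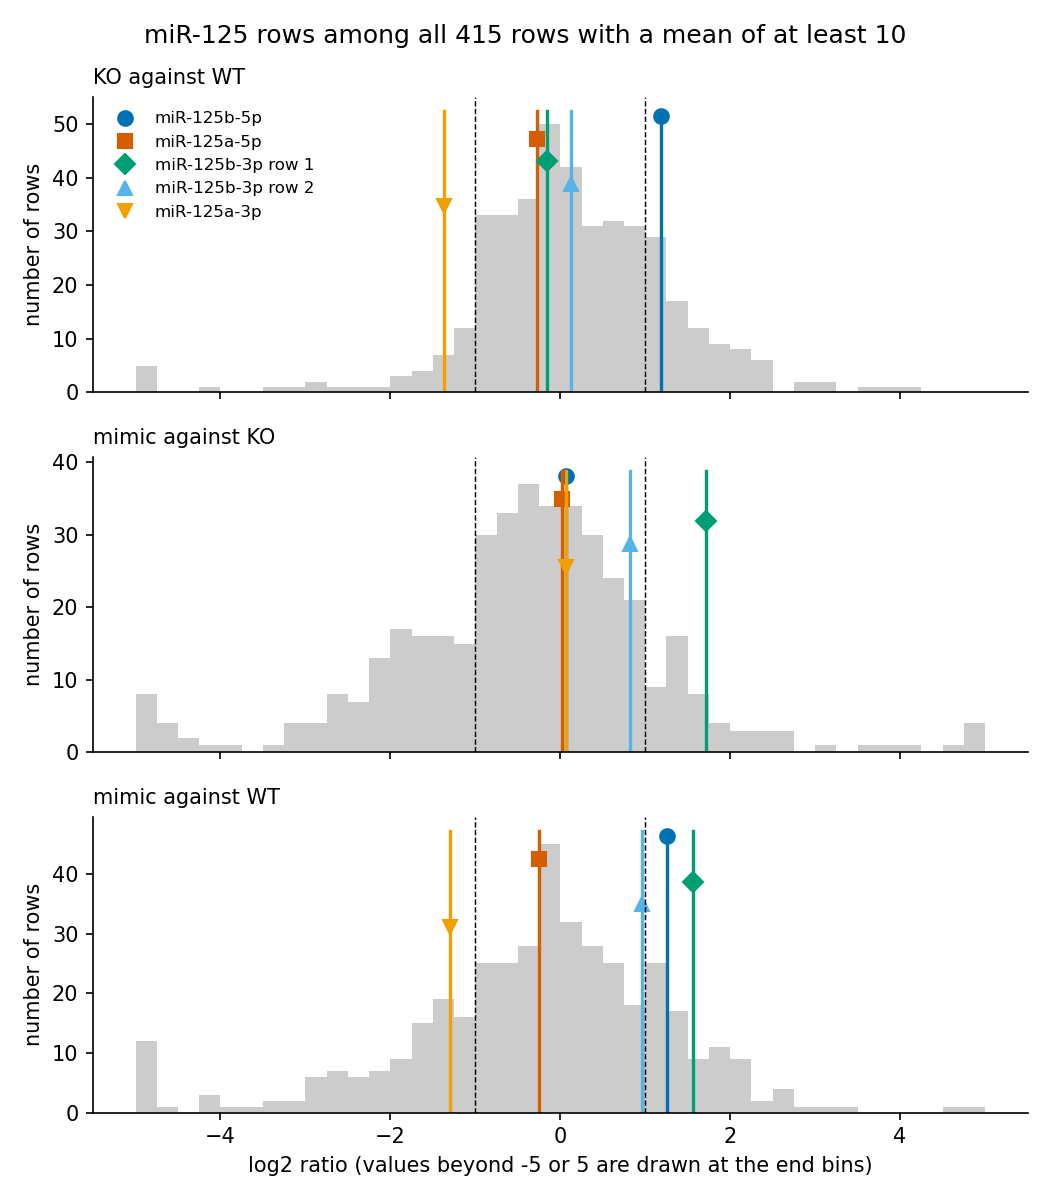
Histograms of the log2 ratio of all 415 rows (grey, number of rows per bin of 0.25), from top to bottom for KO against WT, mimic against KO, then mimic against WT, with the 5 miR-125 rows as coloured lines and the 2-fold limits dashed; 1 library per group. miR-125b-5p is at 1.19, 0.07 and 1.25 in the 3 panels and miR-125a-5p at -0.27, 0.02 and -0.25, near the middle of the rows.

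A ratio of rows within a library does not depend on scaling by 1 factor per library. Whether the deposited normalization was of that kind is not given. miR-125b-5p was 2.50 times miR-125a-5p in mimic and 2.42 times in KO, whereas in WT miR-125a-5p was the higher, at 1.14 times miR-125b-5p. The log2 ratio of miR-125a-5p to miR-125b-5p was -1.32 in mimic, -1.28 in KO and 0.19 in WT. Mature miRNAs differ little in length, but the efficiency with which each is ligated into a library can differ, so these ratios are compared between libraries and not read as molecule numbers.

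The reads that carry the seed CCCUGAG in the 3 measured rows added to 24555 in mimic, 23976 in KO and 15780 in WT, so that the sum was 1.56 times that of WT in mimic and 1.52 times in KO. As a share of the library total this sum was 0.289% in mimic, 0.295% in KO and 0.324% in WT, so the order depended on the scaling. miR-125b-5p made up 70.5% of the sum in mimic, 69.0% in KO and 46.0% in WT. miR-125a-5p made up 28.2% in mimic, 28.5% in KO and 52.3% in WT. miR-351-5p, from a rodent miRNA gene on the X chromosome, added the remainder, with 316 normalized reads in mimic, 604 in KO and 272 in WT. Its level was thus highest in KO, unlike that of either miR-125 guide strand.

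The balance of the arms is likewise free of scaling by 1 factor per library. For miR-125a there were 169 reads of the 5p arm per 3p read in mimic, 175 in KO and 80.9 in WT. For miR-125b there were 23.5 per read of row 1 in mimic, 73.8 in KO and 29.1 in WT, and 57.0 per read of row 2 in mimic, 96.7 in KO and 46.5 in WT. These values set the 5p reads of both gene copies against 1 row alone, so neither is the arm ratio of a single hairpin. With both rows summed, the 3p arm was 5.66% of miR-125b reads in mimic, 2.33% in KO and 5.29% in WT. The mimic and WT libraries were thus near each other for miR-125b, and mimic and KO for miR-125a.

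Shifts of this size were common among miRNAs with both arms measured. In KO against WT the log2 ratio of 5p to 3p was higher by 1.09 for miR-125a and by 1.22 for miR-125b (rows summed). Of 144 such pairs of arms, 35.4% were at least 2-fold higher and 14.6% at least 2-fold lower in KO, and the median difference was 0.55. In mimic against KO the difference was -0.05 for miR-125a and -1.33 for miR-125b, where 26.4% of pairs were at least 2-fold lower and 22.2% at least 2-fold higher. In mimic against WT it was 1.04 for miR-125a and -0.10 for miR-125b, where 34.0% of pairs were at least 2-fold higher and 16.7% at least 2-fold lower. The miR-125 pairs that passed the 2-fold limit are therefore read against the share of all pairs that passed it in the same direction. That share was 35.4% in KO against WT (higher), 26.4% in mimic against KO (lower) and 34.0% in mimic against WT (higher).

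**Figure D4:**
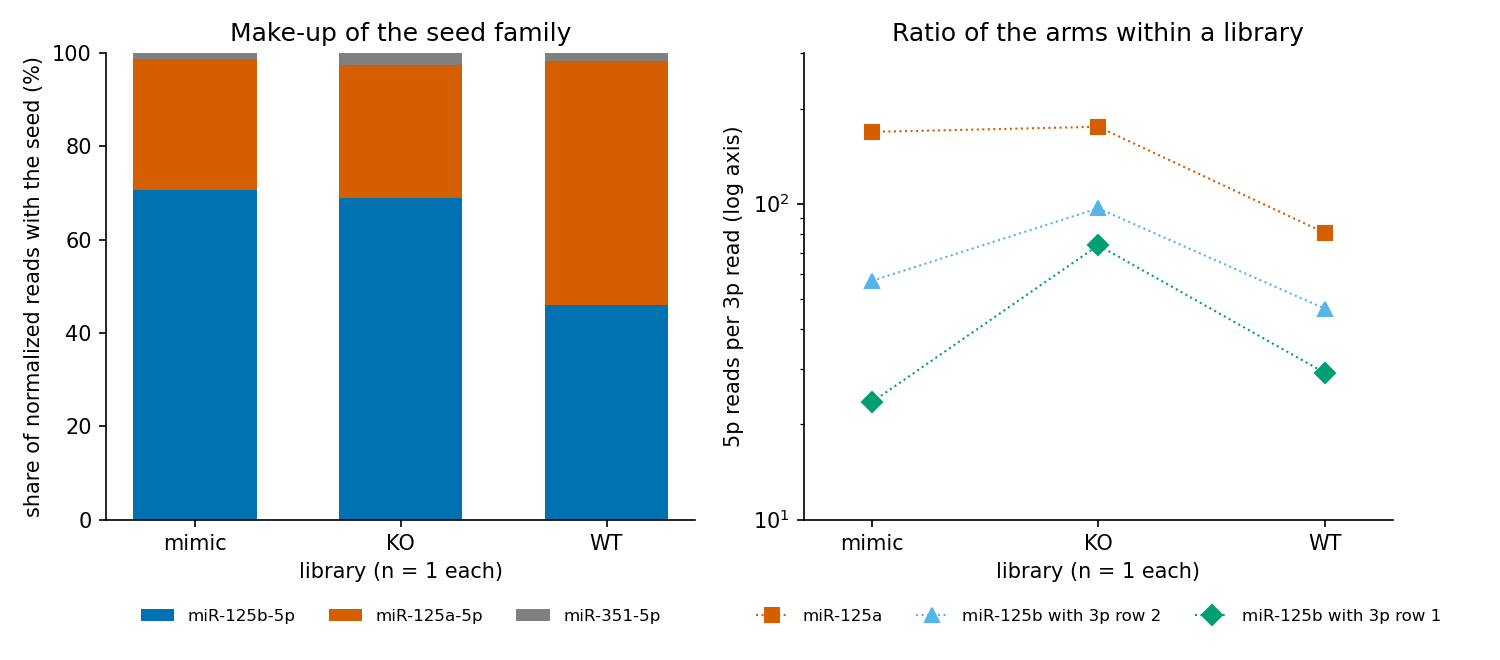
Left, share (%) of the normalized reads with the miR-125 seed that came from miR-125b-5p, miR-125a-5p and miR-351-5p in the mimic, KO and WT libraries. Right, 5p reads per 3p read (log axis) for miR-125a and for miR-125b with each of its 3p rows, 1 library each. miR-125b-5p takes 70.5% in mimic, 69.0% in KO and 46.0% in WT. The ratios of miR-125b-5p, made from both gene copies, to each 3p row alone peak in KO.

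The cluster neighbours are the other hairpins that can be made from the same primary transcripts as miR-125. Of the 12 neighbour names, 10 had a row and 9 passed the limit on low values, since miR-100-3p was listed at 0 in mimic and KO and had 6 reads in WT. No row bore the names let-7a-2-3p or let-7c-1-3p, and a row named let-7c-3p, without a copy number, was not counted. In KO against WT 3 of the 9 (let-7e-5p, let-7a-5p and let-7c-5p) passed the 2-fold limit upward and 0 downward, where 21.2% of all rows passed it upward and 9.64% downward, and the median of the 9 was 0.77. In mimic against KO 0 passed it upward and 4 downward (let-7e-5p, let-7a-5p, let-7c-5p and miR-99b-3p), where 13.3% of all rows passed it upward and 28.2% downward, and the median was -0.18. In mimic against WT 2 passed it upward (miR-100-5p and miR-99a-5p, whose identical values count 2 times) and 0 downward, where 19.8% of all rows passed it upward and 25.8% downward, and the median was 0.00. The identical values of miR-100-5p and miR-99a-5p also count 2 times in each of these medians. They are the median itself in KO against WT (0.77) and lie above it in the other comparisons. Counting them 1 time would lower each median. The medians stand beside those of all rows given above.

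Next to Mir125a, miR-99b-5p, of a family that represses Mtor, lay close to miR-125a-5p in pattern. It had 22007 normalized reads in mimic, 21848 in KO and 23690 in WT, and miR-125a-5p was 0.314 times its level in mimic, 0.313 in KO and 0.348 in WT. let-7e-5p, of the let-7 family that restrains growth by repressing Lin28 and Ras genes, did not. It had 1268 normalized reads in mimic, 6493 in KO and 2350 in WT, highest in KO. miR-125a-5p was therefore 5.46 times let-7e-5p in mimic, 1.05 times in KO and 3.51 times in WT. The minor arms were low, with miR-99b-3p at 48 normalized reads in mimic, 107 in KO and 93 in WT, and let-7e-3p at 142 in mimic, 124 in KO and 154 in WT.

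Of the neighbours of the miR-125b genes, miR-100-5p and miR-99a-5p were deposited with identical levels, 38282 in mimic, 24780 in KO and 14536 in WT, and cannot be told apart. miR-125b-5p was 0.452 times that level in mimic, 0.667 in KO and 0.499 in WT. let-7c-5p had 32094 normalized reads in mimic, 79683 in KO and 30393 in WT. let-7a-5p had 24447 normalized reads in mimic, 53329 in KO and 19060 in WT. Both let-7 rows were thus highest in KO and near the WT level in mimic, whereas miR-125b-5p was as high in mimic as in KO. miR-125b-5p was 0.540 times let-7c-5p in mimic, 0.208 in KO and 0.239 in WT. Both let-7a-5p and let-7c-5p are also made from genes outside these clusters, so their reads are not all products of these transcripts. miR-99a-3p was low, with 22 normalized reads in mimic, 25 in KO and 22 in WT.

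**Figure D5:**
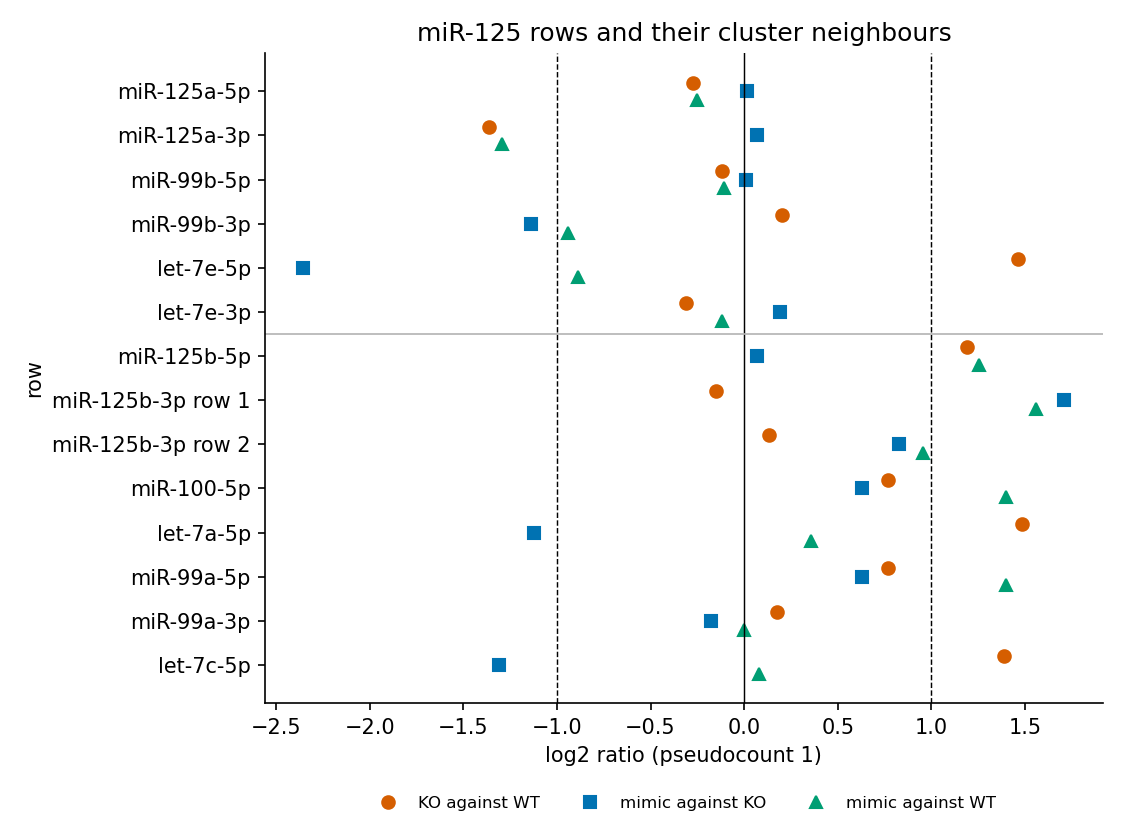
Log2 ratios (pseudocount 1) of the miR-125 rows and of the 9 neighbour rows in KO against WT (circles), mimic against KO (squares) and mimic against WT (triangles), with the Mir125a cluster above the grey line and the clusters of both Mir125b genes under it; dashed lines mark the 2-fold limits and each library is 1 sample. miR-99b-5p lies close to miR-125a-5p in every comparison, whereas let-7e-5p is at 1.47 in KO against WT and -2.36 in mimic against KO. In these comparisons let-7e-3p is at -0.31 and 0.19, and miR-99b-3p at 0.20 and -1.14.

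Among the other 301 rows that averaged 100 or more reads, the patterns most like those of the guide strands were found by the Euclidean distance between log2 values centred on each row's own mean, over these 3 libraries. For miR-125a-5p the nearest were miR-9-5p (distance 0.06), miR-195a-5p (0.09), miR-181d-5p (0.09), miR-676-3p (0.12) and miR-141-5p (0.12). miR-9-5p had 440 normalized reads in mimic, 452 in KO and 514 in WT. For miR-125b-5p the nearest were miR-7a-5p (0.07), miR-144-3p (0.08), miR-148b-3p (0.09), let-7f-5p (0.11) and miR-96-5p (0.14). let-7f-5p had 112419 normalized reads in mimic, 105438 in KO and 51022 in WT, so miR-125b-5p was 0.154 times its level in mimic, 0.157 in KO and 0.142 in WT. With 3 libraries such likeness is easily reached and is given as a description.

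Marker miRNAs of other cell types also differed between the libraries. In tissue RNA, more cells of a type and more RNA per cell cannot be told apart. The muscle list (miR-143-3p, miR-145a-5p, miR-145a-3p, miR-1a-3p and miR-133b-3p, 5 of 6 names with a row) took 26.3% of the total in mimic, 13.0% in KO and 11.7% in WT. The fibroblast and mesenchyme list (4 of 5 names with a row) took 0.620% in mimic, 0.825% in KO and 1.09% in WT. Endothelial markers (2 of 2) took 1.44% in mimic, 0.959% in KO and 1.23% in WT, and white blood cell markers (5 of 5) took 0.609% in mimic, 0.239% in KO and 0.749% in WT. Red blood cell markers (2 of 3) took 0.0339% in mimic, 0.0189% in KO and 0.0398% in WT, and neuronal markers (5 of 5) took 0.0114% in mimic, 0.0202% in KO and 0.0338% in WT. None of these marker rows was at 0 in any library. Rows of a list did not all share its order. In the muscle list miR-143-3p had 1655929 normalized reads in mimic, 954512 in KO and 294225 in WT, miR-145a-5p had 529831 in mimic, 83319 in KO and 261621 in WT, and miR-133b-3p had 1726 in mimic, 1286 in KO and 2158 in WT. In the white blood cell list miR-142a-5p, with 47347 in mimic, 14200 in KO and 31674 in WT, held most of the reads, whereas miR-142a-3p had 1804 in mimic, 2753 in KO and 1587 in WT and miR-155-5p had 422 in mimic, 693 in KO and 605 in WT. The summed reads of the mesenchymal list were 52805 in mimic, 67029 in KO and 52958 in WT, highest in KO, although its share of the total was highest in WT. Its rows miR-199b-3p and miR-199a-5p were highest in KO. In contrast, miR-214-3p had 371 in mimic, 2211 in KO and 2749 in WT, and miR-214-5p had 126, 244 and 264 in that order. The share of miR-125b-5p given above was lowest in WT, the library where the mesenchymal share was highest, and the share of miR-125a-5p was highest there. Both miR-125b-3p rows were highest in mimic, as were the muscle and endothelial shares. The share of miR-125b-5p was 0.204% in both mimic and KO, between which the muscle share differed. The part of these markers in the miR-125 values was not tested.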

How the data were processed

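Small RNA of colonic mucosa was sequenced from 3 libraries (TruSeq small RNA kit, per the labels' protocols). Per the file headers, each deposited value is a normalized number of reads for 1 mature miRNA; it is treated as a score, since the authors had rounded it to a whole number. Another 2 columns, of the unit other, are the differences that the authors computed (KO minus WT, mimic minus KO), and 0 rows departed from the subtraction. Per the submitters' processing notes the build was mm10. The sources used here name no aligner, counter or normalization (not given), so how reads of similar miRNAs were assigned is unknown. Depth is unknown, and no counting intervals are given.

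Rows with a mean under 10 were left out (56 of 471). Ratios are log2 of values plus 1, and a 2-fold limit stood in for a test. miR-125 rows were taken by name. Cluster neighbours, rows with the same seed and the 5 nearest patterns were named by rule. The members and lists were chosen with earlier results of these data known. The script that counts rows past the limit was tested on simulated data to check its arithmetic, which gives no error rate for these libraries. Sequences came from RefSeq (GRCm38.p6) and loci from GENCODE M21. Python 3.11.15, numpy 2.4.6 and pandas 2.3.3 were used. Alternatives were equal totals, with and without miR-10b, median-of-ratios factors, pseudocounts of 0.1 and 10, a limit of 1.5-fold, other filters, and summing rows that share a name.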

Additional observations from a re-analysis of the deposited data

How the results depend on the processing

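Scaling libraries to the same total, with or without the miR-10b rows, left 0 miR-125 rows higher and 2 lower in KO against WT and in mimic against WT. Over all 415 rows it gave 30 higher and 141 lower in KO against WT (17.5% of called rows higher, against 68.8% as deposited) and 30 higher and 194 lower in mimic against WT (13.4%, against 43.4%). Median-of-ratios factors gave 61 lower rows in KO against WT (53.8% higher). In mimic against KO they gave 2 higher miR-125 rows, where 77 of all 415 rows were higher. Among called rows there, 43.5% were higher, against 32.0% as deposited. In mimic against WT these factors, like a 1.5-fold limit, gave 3 higher miR-125 rows, against 2 as deposited. Over all 415 rows, 95 were higher with these factors and 113 with the 1.5-fold limit, against 82 as deposited. Without a filter 75 rows were lower in KO against WT. With a mean of at least 100, which removes miR-125a-3p, 0 miR-125 rows were lower in KO or mimic against WT, and of 302 rows 58 were higher and 18 lower in KO against WT and 67 lower in mimic against WT. A 1.5-fold limit gave 137 higher and 86 lower rows in KO against WT, and 93 higher rows with 2 higher miR-125 rows in mimic against KO.

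A pseudocount of 10 put the log2 ratio of the miR-125a arms at 7.09 in mimic, 7.13 in KO and 6.20 in WT. Summing both miR-125b-3p rows put that of miR-125b at 4.06 in mimic, 5.38 in KO and 4.16 in WT. Requiring a mean of at least 100 in both arms, chosen after seeing the data, left 90 pairs, with 33 higher and 10 lower in KO against WT, 11 and 25 in mimic against KO, and 22 and 13 in mimic against WT. Pseudocounts of 0.1 and 10 put none of the 15 miR-125 log2 ratios on the other side of the limit, and no miR-125 ratio called at least 2-fold changed sign under any alternative listed. Without depth or replicates, the precision of low rows such as miR-125a-3p is unknown. No paired analysis was possible because each group holds 1 library.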
